A study of Mus musculus with 32 samples.

Results

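Interstitial macrophages (IM) were compared with patrolling monocytes (pMo), both sorted from mouse lung, by RNA sequencing. The comparison rests on 4 IM and 4 pMo libraries, which are 8 of the 16 RNA-seq libraries and of the 32 RNA-seq and ATAC-seq libraries of the series. They were taken by their labels alone and not by any measured value. The IM group held 2 libraries from C57BL6J mice and 2 from DBA2J mice, and so did the pMo group. Both strains are inbred laboratory mice, all animals are labelled as receiving no treatment, and no genotype other than strain is given. Per the labels' protocols, lung cells released at body temperature were stained for SiglecF, Ly6g, Ly6c, CD64, CD11b, CD11c, F4/80 and CD45 and then sorted. The gates for each cell type, the age of the mice and the number of animals behind a library are not given in the sources used here. One label field calls the pMo macrophages and the design text calls them monocytes, and monocytes is used here.

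Interstitial macrophages live in the tissue between airspaces and vessels. Such tissue macrophages are known for making complement C1q, for taking up dying cells and debris, and for releasing chemokines and growth factors. Patrolling (non-classical) monocytes crawl along the inner wall of blood vessels, and in mice they depend on the nuclear receptor NR4A1 and leave the bone marrow through the lipid receptor S1PR5. Levels are given in TPM (abundance of a transcript relative to all others in its library), after the entries Rn45s and Mir6236 were removed and each library was rescaled to the same sum. Differences are IM minus pMo on the scale log2(TPM + 1), with their standard error (SE), so that a positive value means higher in IM. This scale understates the change of genes with low levels. A gene was called when its Benjamini-Hochberg adjusted p from limma, with cell type and strain in the model, was under 0.05. Where 4 values are given for a cell type they stand in the order C57BL6J replicates 1 and 2, then DBA2J replicates 1 and 2.

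The 8 libraries separated by cell type on the first principal component, which held 42.0% of the variance, and by strain on the second, which held 18.0%. Replicates of one strain correlated at 0.872 (C57BL6J IM) to 0.939 (DBA2J pMo) across 13922 genes. The 2 removed entries had taken 40.9% to 45.0% of the deposited sum in IM and 43.0% to 57.4% in pMo. At 1 TPM or more, 13512 ± 199 genes were found in IM and 12507 ± 54 in pMo (SD, n = 4 each). Genes that separated the strains in the other cell types of the series lay on the side of the labelled strain for 23 of 25 genes in IM and 17 of 17 in pMo. The C57BL6J IM replicate 2 library stood farthest from the rest on the first component, and it is named below wherever it decides a value. Whether replicates are separate animals is not given in the labels, and a p-value here measures only the spread between these libraries, which may be technical. In sorted bulk samples, fewer cells of a type and less RNA per cell cannot be told apart.

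Of 13922 genes tested, 3388 (24.3%) were called. Higher levels in IM were found for 2424 genes (17.4%) and lower levels for 964 (6.92%). With a difference of at least 2-fold added, 1803 genes (13%) were higher and 452 (3.25%) lower. Called genes whose IM and pMo libraries did not overlap numbered 2072 higher (14.9%) and 805 lower (5.78%). All called genes had the same sign of difference in both strains when each was taken alone. The calls rest on the same libraries, so this shared sign is no independent check. The median difference over all genes tested was 0.19. The split depended on the scaling, with 2740 higher and 665 lower for TPM as deposited, 1925 and 1944 after median-of-ratios scaling, and 1507 and 1585 after quantile normalization. Those scalings moved the median over all genes to 0.29, -0.04 and -0.08, so small differences in either direction are read against that shift. Leaving out 1 library gave 1555 to 2477 genes higher and 535 to 984 lower. The count of lower genes was 535 without C57BL6J pMo replicate 1, 576 without DBA2J pMo replicate 2, 578 without DBA2J IM replicate 2 and 630 without DBA2J IM replicate 1. Without C57BL6J pMo replicate 1 the count of higher genes was 1555.

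**Figure D1:**
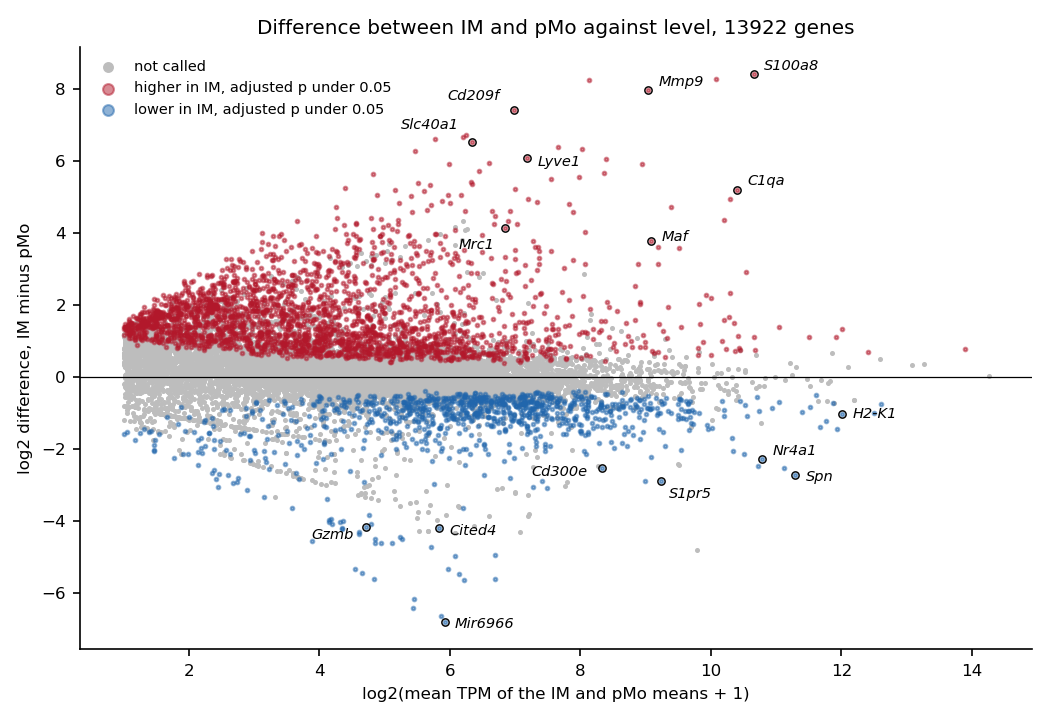
Log2 difference, IM minus pMo, against the mean level of the 2 cell types (log2 of TPM + 1) for the 13922 genes tested, with called genes in colour and some genes named. Differences in favour of IM reach 8.41 (S100a8), which is larger than any in favour of pMo.

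The marker genes of the 2 cell types followed the labels. C1qa, which encodes a chain of the complement component that tags debris for uptake, had 2354, 4463, 1757 and 1909.6 TPM in IM, against 48.5, 53.9, 84.7 and 80.7 TPM in pMo (log2 difference 5.21 ± 0.33, adjusted p = 9.61e-05). Mrc1, the mannose receptor of tissue macrophages, had 233, 323, 142 and 168 TPM in IM, against 8.28, 14.9, 8.53 and 12.2 TPM in pMo (log2 difference 4.15 ± 0.25, adjusted p = 7.32e-05). In both genes every IM library lay far above every pMo library. S1pr5, the receptor for sphingosine 1-phosphate noted above, had 205, 91.7, 136 and 148 TPM in IM, against 1237, 780.1, 1044 and 1146 TPM in pMo (log2 difference -2.88 ± 0.26, adjusted p = 0.000341). Cd300e, an activating receptor of monocytes, had 156, 65.1, 74.4 and 60.6 TPM in IM, against 773, 878, 225 and 329.6 TPM in pMo (log2 difference -2.51 ± 0.33, adjusted p = 0.00158). For both monocyte genes no IM library reached the lowest pMo library, and for Cd300e the pMo libraries themselves split by strain, with the DBA2J pair lower.

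Over the longer marker lists, 21 of 25 interstitial macrophage markers were higher in IM and none lower, and 17 of 20 patrolling monocyte markers were lower in IM and none higher. Over all genes tested the shares were 17.4% higher and 6.92% lower. The lists were chosen with earlier results of these data known, so the counts are no independent check of the labels. The median difference was 3.96 over the macrophage list and -1.90 over the monocyte list, against 0.19 over all genes. Lyve1, the hyaluronan receptor that marks a subset of interstitial macrophages, had 166, 443, 278 and 249.6 TPM in IM, against 3.62, 6.31, 3.24 and 0.67 TPM in pMo. The gene was abundant in every IM library and close to absent from every pMo library. Pf4, a platelet-type chemokine that tissue macrophages also make, had 824, 1919, 509 and 618 TPM in IM, against 11.4, 22.8, 9.75 and 10.5 TPM in pMo. Stab1, a scavenger and clearance receptor, had 777, 1346, 207 and 246 TPM in IM, against 8.13, 12.3, 9.26 and 5.47 TPM in pMo, and its IM values were higher in C57BL6J than in DBA2J. None of the pMo libraries came near that range for Pf4 or Stab1. Folr2, a folate receptor of tissue macrophages, had 229, 517, 252 and 241 TPM in IM, against 2.31, 5.26, 24.2 and 19.2 TPM in pMo. Timd4, a phosphatidylserine receptor of long-lived resident macrophages, had 38.4, 45.2, 71.5 and 52.3 TPM in IM, against 0.782, 2.26, 1.47 and 1.28 TPM in pMo. The differences of these 5 genes were 6.09 ± 0.43 for Lyve1, 5.93 ± 0.31 for Pf4, 5.67 ± 0.39 for Stab1, 4.85 ± 0.58 for Folr2 and 4.43 ± 0.25 for Timd4. The 4 macrophage markers without a call were Adgre1 (the gene of F4/80), Apoe (the lipid carrier apolipoprotein E), Cd68 and Cd72. Adgre1 lay close to the threshold, at 0.54 ± 0.17 (limma adjusted p = 0.0573). The list had 22 members higher in IM for TPM as deposited and after quantile normalization.

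Among the patrolling monocyte markers, Spn, the sialophorin (CD43) used to define non-classical monocytes, had 1081, 369, 692 and 649 TPM in IM, against 4826, 5148, 3730.2 and 3537 TPM in pMo (log2 difference -2.71 ± 0.31). Ace, the angiotensin-converting enzyme, had 1007, 385, 637 and 706 TPM in IM, against 4096, 3253, 3772 and 3852 TPM in pMo (log2 difference -2.53 ± 0.28). Eno3, a muscle-type enolase on the same list, had 137, 51.8, 155 and 178 TPM in IM, against 807, 831, 969 and 916 TPM in pMo (log2 difference -2.88 ± 0.30). In each of these genes C57BL6J IM replicate 2 was the lowest of the 8 libraries. The IM did not lack these transcripts, and their level was of the order of that in the inflammatory monocytes (iMo) of the series, where Spn had 663 to 1278 TPM and S1pr5 176 to 280.4 TPM. Cx3cr1, the fractalkine receptor that retains patrolling monocytes at the vessel wall, had 573, 388, 447 and 438 TPM in IM, against 607, 727, 763 and 639.9 TPM in pMo (log2 difference -0.58 ± 0.16, adjusted p = 0.0345). That difference was small beside the others of the list although no libraries overlapped. Its call was lost in 7 of the 8 fits that left out 1 library, all but the one without C57BL6J IM replicate 1, and also for TPM as deposited and after quantile normalization.

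**Figure D2:**
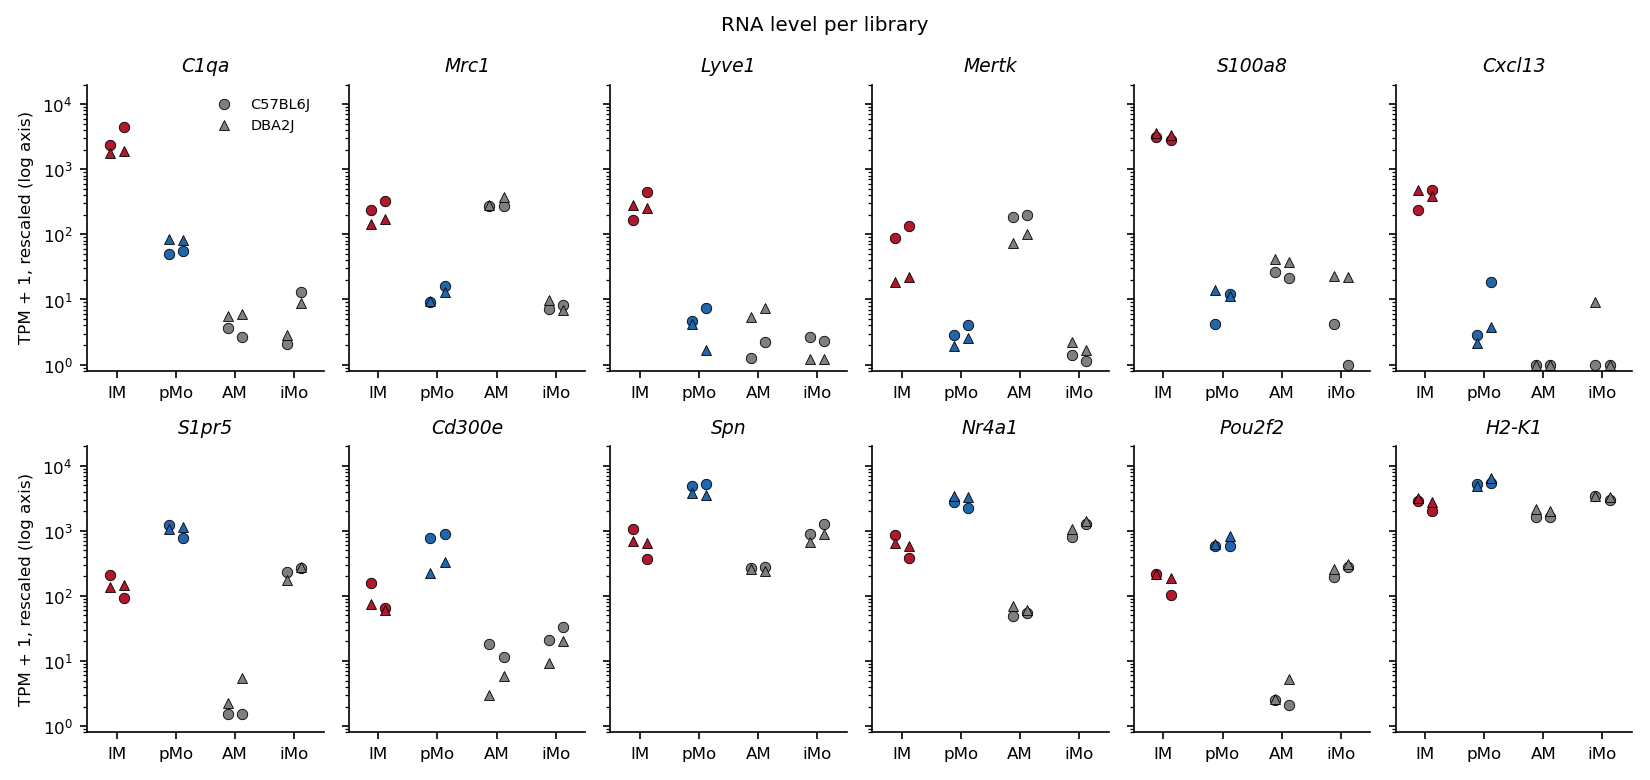
TPM + 1 (log axis, rescaled) of 12 genes in each library of IM, pMo and, in grey, AM and iMo, with circles for C57BL6J and triangles for DBA2J. For C1qa, Mrc1, Lyve1, Mertk, S100a8 and Cxcl13 every IM library lies above every pMo library, and for S1pr5, Cd300e, Spn, Nr4a1, Pou2f2 and H2-K1 every IM library lies below.

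The largest differences in favour of IM belonged to genes known from neutrophils. S100a8, a subunit of the calcium-binding protein calprotectin, had 3093, 2831, 3592 and 3380.2 TPM in IM, against 3.21, 11.2, 12.8 and 10.3 TPM in pMo (log2 difference 8.41 ± 0.32, adjusted p = 1.31e-05). S100a9, its partner, had 946, 1518, 3127 and 2995 TPM in IM, against 2.5, 4.2, 11.5 and 5.35 TPM in pMo (log2 difference 8.28 ± 0.26). Retnlg, a resistin-like secreted protein, had 299, 638, 744 and 552 TPM in IM, against 0.817, 0, 4.08 and 0 TPM in pMo (log2 difference 8.25 ± 0.51). All 3 genes were near 0 in pMo and abundant in all 4 IM libraries. Mmp9, the gelatinase B of neutrophil granules, had 1179, 1361, 938 and 695 TPM in IM, against 2.43, 4.25, 3.03 and 2.6 TPM in pMo (log2 difference 7.98 ± 0.20). Cxcr2, the receptor that draws neutrophils to CXC chemokines, had 397, 289, 774 and 591 TPM in IM, against 5.74, 6.86, 5.31 and 2.74 TPM in pMo (log2 difference 6.33 ± 0.35). S100a8 reached 20.3 to 40.9 TPM in alveolar macrophages (AM) and 0 to 21.6 TPM in iMo, so that in these libraries IM alone held it at this level.

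Of 13 neutrophil markers 11 were tested and all 11 were higher in IM, and 8 of them without DBA2J IM replicate 2. Their summed level was 7525 to 11674 TPM in IM and 299.5 to 439 TPM in pMo, with no overlap. Of the defining genes, Mpo and Elane, enzymes of the primary granules of immature neutrophils, were at 0 in all 4 IM libraries, and Elane also in all 4 pMo libraries. Ly6g, the surface antigen used in the sort panel, had 0.693, 5.21, 2.22 and 2.89 TPM in IM and was listed at 0 in all pMo libraries. Its call was lost without C57BL6J pMo replicate 1, DBA2J IM replicate 2 or either DBA2J pMo library. The list shares Mmp9, Cxcr2 and Csf3r with the lists of matrix factors, trafficking receptors and cytokine receptors below. The part of neutrophil RNA in these differences was not tested.

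The other genes with the largest differences were not on the neutrophil list. Cd209f, a lectin of the DC-SIGN family, had 181, 372, 217 and 231 TPM in IM, against 1.04, 0, 1.04 and 0 TPM in pMo. Ccl8, a chemokine for monocytes and T cells, had 139, 314, 79.8 and 65.7 TPM in IM, against 0.957, 0, 0 and 0 TPM in pMo. Slc40a1, the iron exporter ferroportin, had 151, 68.3, 246 and 169.8 TPM in IM, against 0.439, 0.741, 0.175 and 1.04 TPM in pMo. Their differences were 7.41 ± 0.35 for Cd209f, 6.71 ± 0.36 for Ccl8 and 6.53 ± 0.35 for Slc40a1, and all 3 were at or near 0 in pMo. Cxcl13, the chemokine that draws B cells into follicles, had 237, 482, 486 and 382 TPM in IM, against 1.87, 17.3, 1.12 and 2.8 TPM in pMo (log2 difference 6.40 ± 0.63), and 1 pMo library, C57BL6J replicate 2, was well above the other 3. Il1f9 and the protease gene Asprv1 were nearly absent from pMo, with differences of 6.29 ± 0.25 and 6.67 ± 0.43. In AM and iMo neither gene passed 2.99 TPM. The part of neutrophil RNA in their differences was not tested.

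The 12 largest differences the other way were short non-coding entries but for 1 histone gene. Mir6966 and Mir1190, entries named for microRNA hairpins, were listed at 0 in all 4 IM libraries and at 196, 122, 65.1 and 93.1 TPM and 179, 45.5, 162 and 69.6 TPM in pMo. Scarna13, a small RNA of Cajal bodies, was likewise at 0 in all IM libraries and at 16.9, 47.4, 78.7 and 36.2 TPM in pMo. For entries of this length few fragments decide a TPM value, and no log2 difference is given against a group at 0. Of 507 tested entries spanning under 200 bases, 6 were higher and 35 lower in IM, and 21 of the 35 were at 0 in every IM library. Of all 507, 158 were at 0 in all IM libraries and 90 in all pMo libraries.

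Among protein-coding genes, chosen after the values were seen, the differences in favour of pMo were smaller than those in favour of IM. Tmem121b, a membrane protein, had 48.9, 27.2, 27.8 and 26.4 TPM in IM, against 374, 258, 239 and 229.6 TPM in pMo (log2 difference -3.06 ± 0.21, adjusted p = 0.000107). Cited4, a transcriptional co-activator, had 4.26, 0, 13.7 and 7.4 TPM in IM, against 207, 94.6, 47.8 and 75 TPM in pMo (log2 difference -4.20 ± 0.81, adjusted p = 0.00862). Ddit4, an inhibitor of the growth kinase mTOR that responds to stress, had 92, 75.6, 15.4 and 6.22 TPM in IM, against 686, 224, 166 and 159 TPM in pMo (log2 difference -3.07 ± 0.48, adjusted p = 0.00349). No IM library of these 3 genes reached the lowest pMo library. Gzmb, the protease granzyme B of cytotoxic lymphocytes, had 0, 2.47, 0 and 0.531 TPM in IM, against 61.8, 116, 2.64 and 18.9 TPM in pMo (log2 difference -4.15 ± 0.78). Its pMo values spread widely, with DBA2J replicate 1 lowest.

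Open chromatin took no part in choosing the libraries or in calling genes. It was read at gene starts from the deposited ATAC-seq peak lists, 1 per cell type and strain. The lists held 70013 peaks in C57BL6J IM and 24429 in DBA2J IM, against 45534 in C57BL6J pMo and 26592 in DBA2J pMo. In DBA2J, 141 of the 1803 genes at least 2-fold higher in IM (7.82%) had a peak within 1 kb of the start in IM only, and 3.99% in pMo only. Of the 452 genes at least 2-fold lower in IM, 2.65% had a peak in IM only and 9.29% (42 genes) in pMo only. Genes without a call had 2.17% and 2.90%. In C57BL6J the IM list was the longer one, and a peak in IM only was found for 28.0% of the higher genes, 9.07% of the lower genes and 8.81% of genes without a call. A peak in pMo only was rare there, at 0.721%, 1.77% and 0.399% of those classes. With both strains required, 91 of the 1803 higher genes (5.05%) had a peak in IM only, against 191 of all 13922 genes tested (1.37%). Of the 452 lower genes, 2 (0.442%) had a peak in pMo only by that rule and 5 (1.11%) in IM only. Among all genes tested 9 (0.0646%) had one in pMo only. With 1 list per group these shares have no replicate check.

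**Figure D3:**
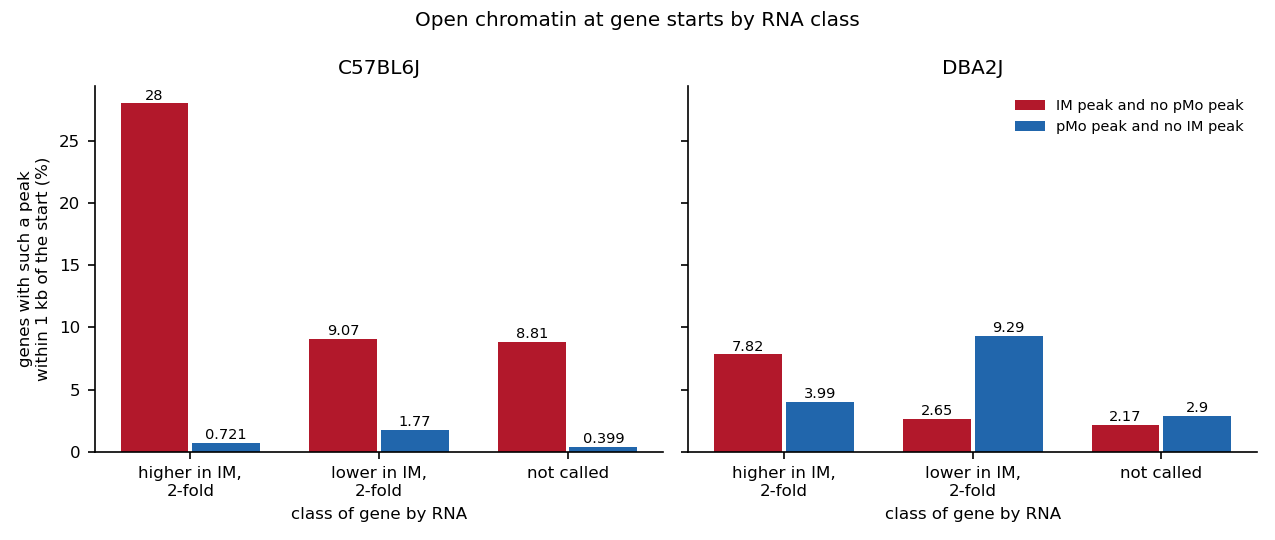
Percent of genes with an ATAC-seq peak within 1 kb of the start in IM only (left bar of each pair) or in pMo only (right bar), by class of RNA difference, in C57BL6J and DBA2J. In DBA2J the IM-only bar is higher for genes higher in IM (7.82%) and the pMo-only bar for genes lower in IM (9.29%), while in C57BL6J the IM-only bars are the higher ones in every class.

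Starts with peaks in both IM lists and in neither pMo list included S100a8, Cxcr2 and Mertk, and starts with peaks in all 4 lists included S1pr5 and Nr4a1. Their promoters are shown because they set peaks in IM only beside peaks shared by both cell types. The lack of a pMo peak at S100a8, Cxcr2 and Mertk was thus fixed by this choice. Each is the 250 bases before the RefSeq start in GRCm38.p6, which is mm10, read along the gene, with matches to the PU.1 core GGAAGT or its reverse complement, or to the longer GAGGAAGT, in capitals.
S100a8, chr3:90668821-90669070, plus strand: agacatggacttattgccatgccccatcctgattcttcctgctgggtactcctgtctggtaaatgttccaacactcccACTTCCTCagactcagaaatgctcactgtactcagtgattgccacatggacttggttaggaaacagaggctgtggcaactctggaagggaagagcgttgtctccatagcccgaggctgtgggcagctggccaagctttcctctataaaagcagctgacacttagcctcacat
Cxcr2, chr1:74153744-74153993, plus strand: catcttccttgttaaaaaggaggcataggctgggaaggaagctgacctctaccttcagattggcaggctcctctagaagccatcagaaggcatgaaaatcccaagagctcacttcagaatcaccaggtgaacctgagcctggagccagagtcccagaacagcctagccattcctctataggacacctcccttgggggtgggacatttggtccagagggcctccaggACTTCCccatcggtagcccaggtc
Mertk, chr2:128698665-128698914, plus strand: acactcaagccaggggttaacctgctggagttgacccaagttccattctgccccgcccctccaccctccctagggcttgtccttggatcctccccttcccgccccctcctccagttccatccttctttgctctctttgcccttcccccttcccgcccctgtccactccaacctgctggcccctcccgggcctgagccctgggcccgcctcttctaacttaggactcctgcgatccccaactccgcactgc
S1pr5, chr9:21248444-21248693, minus strand: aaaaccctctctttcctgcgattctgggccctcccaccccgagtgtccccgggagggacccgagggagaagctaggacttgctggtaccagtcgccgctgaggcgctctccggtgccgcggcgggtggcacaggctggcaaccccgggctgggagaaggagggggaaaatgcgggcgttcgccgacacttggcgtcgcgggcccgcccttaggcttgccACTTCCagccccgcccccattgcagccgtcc
Nr4a1, chr15:101266596-101266845, plus strand: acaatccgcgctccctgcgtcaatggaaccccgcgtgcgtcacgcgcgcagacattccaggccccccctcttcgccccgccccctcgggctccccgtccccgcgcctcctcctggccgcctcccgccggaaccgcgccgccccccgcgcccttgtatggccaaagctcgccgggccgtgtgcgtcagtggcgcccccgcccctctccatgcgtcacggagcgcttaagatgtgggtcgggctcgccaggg

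In the S100a8 stretch the DBA2J IM peak covered 199 of the 250 bases and the C57BL6J IM peak began 8 bases inside the gene, while no pMo peak touched it. For Cxcr2 both IM peaks covered 118 bases and no pMo peak any. For Mertk the IM peaks covered 183 bases in C57BL6J and 201 in DBA2J, again with none in pMo. The S1pr5 stretch was covered in all 4 lists, by 151 and 117 bases in IM and 106 and 131 bases in pMo, and the Nr4a1 stretch by 99 and 201 bases in IM and 138 and 201 bases in pMo. GGAAGT on either strand was found in 19.7% of the 32851 promoters of the table and GAGGAAGT, which contains it, in 2.44%. A match is only a run of letters, and 3 of these 5 stretches held one. A comparison of motif shares between gene classes was void, since the table held promoters for 9906 of the 13922 genes (71.2%). C1qa, Lyve1, Stab1, Mmp9 and S100a9 had a peak within 1 kb of the start in C57BL6J IM only. So did Ace, Bcl6 and Prf1, which were lower in IM. Mrc1 and Siglecf, both higher in IM, had such a peak in C57BL6J pMo only, as did Tmem121b, which was lower in IM. Cd300e, Ccl8, Cd209f and Cxcl13 had none in any list.

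Complement genes were higher in IM for 15 of 20 tested members, with 1 lower. List counts here and below are read against 17.4% higher and 6.92% lower over all genes tested. C1qb, a chain that assembles with C1qa, had 791 to 2327 TPM in IM, against 29.1 to 69.9 TPM in pMo. C1qc, the other such chain, had 1372 to 4644 TPM in IM, against 44.6 to 80.2 TPM in pMo. C4b, a component cleaved after C1q binds, had 120.1, 252, 182 and 206 TPM in IM, against 13, 9.06, 6.15 and 2.13 TPM in pMo (log2 difference 4.62 ± 0.42). C1qa, C1qb and C1qc were all highest in C57BL6J IM replicate 2. The receptors C3ar1 and C5ar1 for complement fragments were among the 15 genes, and the exception was Itgb2, the beta chain of complement receptor 3.

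Receptors for dying cells and their bridging proteins split. Of 18 tested members 8 were higher and 4 lower in IM, and the lower count was 1 or 2 in 6 of the 8 fits that left out 1 library. Mertk, the receptor kinase that drives uptake of apoptotic cells, had 88.5, 133, 17.9 and 21.3 TPM in IM, against 1.87, 3.01, 0.947 and 1.59 TPM in pMo (log2 difference 4.10 ± 0.39), and the C57BL6J IM values were above the DBA2J ones. Gas6, the protein that bridges MERTK to phosphatidylserine, had 89.7, 191, 43.6 and 50.8 TPM in IM, against 1.06, 2.3, 1.11 and 0.681 TPM in pMo (log2 difference 5.17 ± 0.33). Cd300lf, a lipid-binding receptor, had 229, 239.7, 320.4 and 256 TPM in IM, against 29.9, 44.8, 38.9 and 44.8 TPM in pMo (log2 difference 2.70 ± 0.16). Itgb3, the beta chain of the vitronectin receptor, lay lower in IM, with 8.1, 0.876, 14.9 and 16.1 TPM in IM, against 16.4, 13.4, 78.8 and 90.5 TPM in pMo (log2 difference -2.15 ± 0.44). DBA2J libraries of both cell types held more Itgb3 than C57BL6J libraries of the same type. Among 19 scavenger and endocytic receptors 10 were higher in IM, Mrc1, Lyve1, Stab1, Folr2 and Cd209f with them, and 3 were lower. The lower count was 1 without C57BL6J pMo replicate 1 or DBA2J IM replicate 2.

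Genes of the lysosome, where engulfed material is broken down, were higher in IM for 21 of 32 members and lower for 2. The higher count was 12 without C57BL6J pMo replicate 1, and the counts were 17 and 5 after median-of-ratios scaling. The lower count was 1 without C57BL6J pMo replicate 1, DBA2J pMo replicate 2 or either DBA2J IM library. Ctsf, Ctsk, Ctsl and Ctsc, all cathepsin proteases, led the list, with differences of 4.12 ± 0.47, 3.14 ± 0.58, 2.49 ± 0.27 and 2.26 ± 0.18. Ctsl had 174, 145, 84.1 and 91.6 TPM in IM, against 15.2, 37.8, 15.9 and 18.2 TPM in pMo. In AM it had 157 to 333 TPM. Ctsk had 127, 128, 11.6 and 26 TPM in IM, against 3.33, 6.38, 2.88 and 6.5 TPM in pMo, with both C57BL6J IM libraries above both DBA2J ones. Npc2, which hands cholesterol out of the lysosome, had 255, 269.8, 225 and 243 TPM in IM, against 119.7, 144, 123 and 108 TPM in pMo (log2 difference 1.00 ± 0.12). Of 18 subunits of the proton pump that acidifies the lysosome 8 were higher and none lower, led by Atp6v0d2 at 4.37 ± 0.34, Atp6v0a1 at 1.61 ± 0.18 and Atp6v1g1 at 1.47 ± 0.28. Ctsk and Atp6v0d2 are also on the list of alveolar macrophage markers below, and they had 314 to 359 TPM and 299.7 to 399 TPM in AM. The part of alveolar macrophage RNA in their differences was not tested.

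Chemokine ligands were higher in IM for 14 of 19 members and lower for 1. Beside Cxcl13 and Ccl8, these included Ccl24, an eosinophil attractant, with 63.6, 103, 63.4 and 42.4 TPM in IM, against 2.48, 2.08, 0 and 0 TPM in pMo (log2 difference 5.18 ± 0.29). Ccl7, which draws monocytes through CCR2, had 79.8, 119, 48.6 and 71.9 TPM in IM, against 0.852, 0, 7.66 and 0.912 TPM in pMo (log2 difference 5.03 ± 0.62). In both genes every IM library stood well above every pMo library. Ccl5, made by lymphocytes and monocytes, was the member lower in IM, and its call was lost in 6 of the 8 fits that left out 1 library.

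Receptors for chemokines and lipid signals were higher in IM for 10 of 20 members and lower for 3. Ccr1, a receptor for inflammatory CC chemokines, had 291, 269, 781 and 643 TPM in IM, against 10.3, 7.91, 11.3 and 5.29 TPM in pMo (log2 difference 5.57 ± 0.35). It was higher in the DBA2J IM libraries than in the C57BL6J ones, and it stood far above pMo in each strain. P2ry12, a receptor for ADP known from microglia, had 27.3, 39.1, 32.1 and 26 TPM in IM, against 1.09, 2.96, 2.47 and 2.27 TPM in pMo (log2 difference 3.35 ± 0.26). The lower members were Cx3cr1, S1pr5 and S1pr4. The lower count was 1 after quantile normalization and in 6 of the 8 fits that left out 1 library, all but those without C57BL6J IM replicate 1 or C57BL6J pMo replicate 2.

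Adhesion molecules ran the other way. Of 25 integrins and related proteins 3 were higher and 10 lower in IM, and 6 lower without C57BL6J pMo replicate 1. Itgax, the gene of CD11c, had 422, 368, 298 and 259 TPM in IM, against 609, 715, 457 and 599 TPM in pMo (log2 difference -0.83 ± 0.14, adjusted p = 0.00538). Spn was the largest of the lower members, and the alpha and beta chains of the integrin LFA-1, Itgal and Itgb2, were among them. Those 2 genes were named after their values were seen, with 774, 362, 707 and 654 TPM in IM, against 2087, 1982, 1732 and 1920.2 TPM in pMo for Itgal (log2 difference -1.68 ± 0.24) and -1.14 ± 0.12 as the difference of Itgb2. Itga6, a laminin receptor chain, had 23.5, 27.6, 16.4 and 20.0 TPM in IM, against 1.97, 3.15, 1.23 and 1.94 TPM in pMo (log2 difference 2.91 ± 0.21).

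Receptors for antibody and their inhibitory partners were divided, with 6 of 19 members higher and 7 lower in IM. Median-of-ratios scaling gave 6 and 11. Trem2, a lipid-sensing receptor of macrophages, had 202, 266, 103 and 114 TPM in IM, against 21.8, 18.4, 41.2 and 24.5 TPM in pMo (log2 difference 2.60 ± 0.36). Fcgr1, the high-affinity receptor CD64 used in the sort, had 141, 108, 131 and 113 TPM in IM, against 36.6, 69.8, 68.1 and 54 TPM in pMo (log2 difference 1.13 ± 0.22). Treml4, a receptor that binds dead cells and marks patrolling monocytes, had 245, 72.3, 283 and 246 TPM in IM, against 860.4, 842, 863 and 929.6 TPM in pMo (log2 difference -2.21 ± 0.37). Trem2 and Treml4, related receptors, thus differed in opposite directions with no overlap of libraries in either.

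The 2 classes of antigen-presenting molecules differed in opposite directions. Of 12 class II genes 7 were higher in IM and none lower, and of 15 class I genes none was higher and 7 were lower. After median-of-ratios scaling these counts were 5 higher for class II and 12 lower for class I. H2-Aa, the alpha chain of a class II molecule, had 3654, 4692, 3982 and 3456 TPM in IM, against 1713, 1506, 2272 and 1881 TPM in pMo (log2 difference 1.10 ± 0.17). H2-DMb1, which helps load peptides onto class II, had 195, 179.6, 206 and 199.5 TPM in IM, against 94.3, 90.7, 112 and 97.7 TPM in pMo (log2 difference 0.98 ± 0.11). In both class II genes every IM library lay above every pMo library. H2-K1, a classical class I heavy chain, had 2893, 2025, 3233 and 2782 TPM in IM, against 5246, 5477, 4818 and 6485 TPM in pMo (log2 difference -1.02 ± 0.18). H2-D1, the other classical chain, had 4418, 3053, 4125 and 3841 TPM in IM, against 8323, 6989.9, 7019 and 8517 TPM in pMo (log2 difference -1.01 ± 0.17). In both class I genes every IM library lay below every pMo library. Class I genes have near-identical copies and the 2 strains carry different alleles, so the split of reads among them is uncertain.

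Transcription factors known from macrophages were higher in IM for 8 of 21 members and lower for 6, and 7 and 7 after median-of-ratios scaling. Maf, a regulator of the resident macrophage state, had 842, 1766, 745 and 693 TPM in IM, against 61.4, 57, 92.7 and 64.5 TPM in pMo (log2 difference 3.77 ± 0.31). Bhlhe41, known from alveolar macrophages and on their marker list below, had 79.1, 152, 44 and 47.4 TPM in IM, against 2.36, 7.23, 2.58 and 6.45 TPM in pMo (log2 difference 3.79 ± 0.43), and 172 to 275 TPM in AM. Tfec and Egr2 followed, with differences of 2.98 ± 0.30 and 2.73 ± 0.29. Egr2 had 44.9 to 72.5 TPM in IM and 239 to 526 TPM in AM. Factors known from monocytes were higher in IM for 2 of 20 members and lower for 8, and 2 and 12 after median-of-ratios scaling. The higher count was 1 without DBA2J IM replicate 2 or DBA2J pMo replicate 1. Nr4a1, the nuclear receptor on which patrolling monocytes depend, had 848, 385, 642 and 588 TPM in IM, against 2739, 2229, 3383 and 3292 TPM in pMo (log2 difference -2.27 ± 0.24). Pou2f2, an octamer-binding factor, had 217, 103, 214 and 186 TPM in IM, against 591, 581, 618 and 829 TPM in pMo (log2 difference -1.90 ± 0.23). Hes1, a target of Notch signalling, had 31.8, 15.3, 22 and 22.9 TPM in IM, against 135, 86.9, 76.4 and 71.8 TPM in pMo (log2 difference -1.96 ± 0.26). In all 3 genes no IM library reached the lowest pMo library, and the lowest IM value was that of C57BL6J replicate 2. Bcl6, a repressor, was also lower, with a difference of -1.53 ± 0.19.

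Sensors and cytokines of inflammation differed in part. Toll-like receptor signalling had 7 of 23 members higher in IM and none lower, and 5 and 3 after median-of-ratios scaling. The shares over all genes tested were 17.4% and 6.92%. Tlr5, the flagellin sensor, had 73, 106, 39.8 and 34 TPM in IM, against 2.47, 3.26, 3.77 and 3.81 TPM in pMo (log2 difference 3.76 ± 0.33). Tlr4, the sensor of bacterial lipopolysaccharide, had 137, 138, 123 and 125 TPM in IM, against 34.1, 62.1, 30.3 and 40.8 TPM in pMo (log2 difference 1.67 ± 0.20), and its co-receptor Cd14 had 754 to 1458 TPM in IM, against 87.2 to 149.6 TPM in pMo. Of 21 NF-kB response genes and cytokines 6 were higher and 4 lower, and 6 and 9 after median-of-ratios scaling. Il1rn, the antagonist of interleukin-1, had 169, 188, 264 and 209 TPM in IM, against 13.9, 24.4, 18.4 and 23 TPM in pMo (log2 difference 3.33 ± 0.20). In AM it had 270 to 422 TPM. Ptgs2, the inducible cyclooxygenase, had 115, 28.8, 57.3 and 29 TPM in IM, against 6.58, 3.69, 1.69 and 0 TPM in pMo (log2 difference 3.99 ± 0.56). Il1a had a difference of 2.45 ± 0.28. The lower members were Nfkb1, Nfkb2, Relb and Nfkbiz, genes of the NF-kB factors themselves and of a co-regulator.

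Interferon-stimulated genes gave no stable count. With all libraries 5 of 25 were higher in IM, with none lower, against 17.4% and 6.92% of all genes tested. The count was 11 without C57BL6J IM replicate 2, 1 without C57BL6J pMo replicate 1, and 0 without C57BL6J IM replicate 1 or without any 1 of the 4 DBA2J libraries. Other scalings gave counts of 3 higher with 2 lower (median-of-ratios) and 2 higher with 0 lower (quantile). The summed level of the list was 1058 to 3309 TPM in IM and 1665 to 2190.1 TPM in pMo. The lowest IM sum was that of C57BL6J replicate 2. Immediate early genes, which rise within minutes of handling or stimulation, were higher for 8 of 21 members and lower for 4. That count was 2 and 4 after median-of-ratios scaling, and the higher count was 3 without C57BL6J pMo replicate 1 or DBA2J IM replicate 2, 4 without C57BL6J IM replicate 1, and 5 without DBA2J IM replicate 1 or DBA2J pMo replicate 2. Dusp2, a phosphatase that ends kinase signalling, was lower in IM, with 115, 16.9, 18.4 and 11.7 TPM in IM, against 315, 181, 188 and 113 TPM in pMo (log2 difference -2.81 ± 0.56). The libraries overlapped, since 1 IM library, C57BL6J replicate 1, lay above the lowest pMo library. Of 14 heat shock chaperones only Bag3 was called, and 7 of the 8 fits that left out 1 library lost it.

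Cytokine and growth factor receptors were higher in IM for 4 of 20 members and lower for 8, and 2 and 5 without C57BL6J pMo replicate 1. The higher share lay near the 17.4% of all genes tested, of which 6.92% were lower. Csf3r, the receptor for the neutrophil growth factor, had 1502, 922, 2330.1 and 1743 TPM in IM, against 312, 264, 309 and 405 TPM in pMo (log2 difference 2.27 ± 0.21). Eng, a co-receptor of the TGF-beta family, had 57.5, 74.7, 17.3 and 43.5 TPM in IM, against 6.89, 6, 8.07 and 7.29 TPM in pMo (log2 difference 2.44 ± 0.38). The summed endothelial markers ranked the IM libraries in the same order, at 403, 609, 72.8 and 316 TPM. The part of endothelial RNA in the Eng difference was not tested. Il17ra, a receptor for interleukin-17, had 496, 256, 549 and 477 TPM in IM, against 1102, 1125, 1158 and 1329 TPM in pMo (log2 difference -1.46 ± 0.21). No IM library of Il17ra came near the lowest pMo library.

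Secreted growth and matrix factors were higher in IM for 18 of 24 members and lower for none. Igf1, a growth factor that macrophages supply to tissue, had 54.8, 57.7, 15.3 and 16.2 TPM in IM, against 0.534, 0.721, 0.196 and 0.404 TPM in pMo (log2 difference 4.41 ± 0.32). Mmp12, the macrophage elastase, had 141, 90.0, 106 and 112 TPM in IM, against 1.18, 3.47, 3.65 and 3.54 TPM in pMo (log2 difference 4.89 ± 0.28). Spp1, osteopontin, had 224, 230.4, 173 and 262 TPM in IM, against 13, 22.7, 6.34 and 5.1 TPM in pMo (log2 difference 4.32 ± 0.32). No pMo library of these 3 genes came near the lowest IM library. Spp1 is also on the alveolar macrophage list, with 451 to 3153 TPM in AM. Mmp8, a collagenase known from neutrophil granules and a member of the classical monocyte list below, had 85.3 to 118 TPM in IM, against 0.919 to 2.45 TPM in pMo, and 94.3 to 134 TPM in iMo. Of 15 genes of coagulation and fibrinolysis 9 were higher in IM and 2 lower, and the lower calls numbered 0 or 1 in all 8 fits that left out 1 library. F13a1, the transglutaminase that cross-links fibrin, had 107, 158, 118 and 120.5 TPM in IM, against 3.97, 6.08, 11.7 and 5.9 TPM in pMo (log2 difference 4.07 ± 0.28). Plau, an activator of fibrinolysis, was higher, with a difference of 3.38 ± 0.36. Of 15 eicosanoid enzymes 8 were higher and none lower. Ptgs1, the constitutive cyclooxygenase, had 59.3, 63.7, 65.7 and 57.2 TPM in IM, against 2.33, 4.95, 4.02 and 3.03 TPM in pMo (log2 difference 3.80 ± 0.21). Hpgds, a synthase of prostaglandin D, had a difference of 3.46 ± 0.38, and Ltc4s, the synthase of leukotriene C, had 154, 610.3, 213 and 236 TPM in IM, against 31.3, 13.6, 17.9 and 31.9 TPM in pMo.

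**Figure D4:**
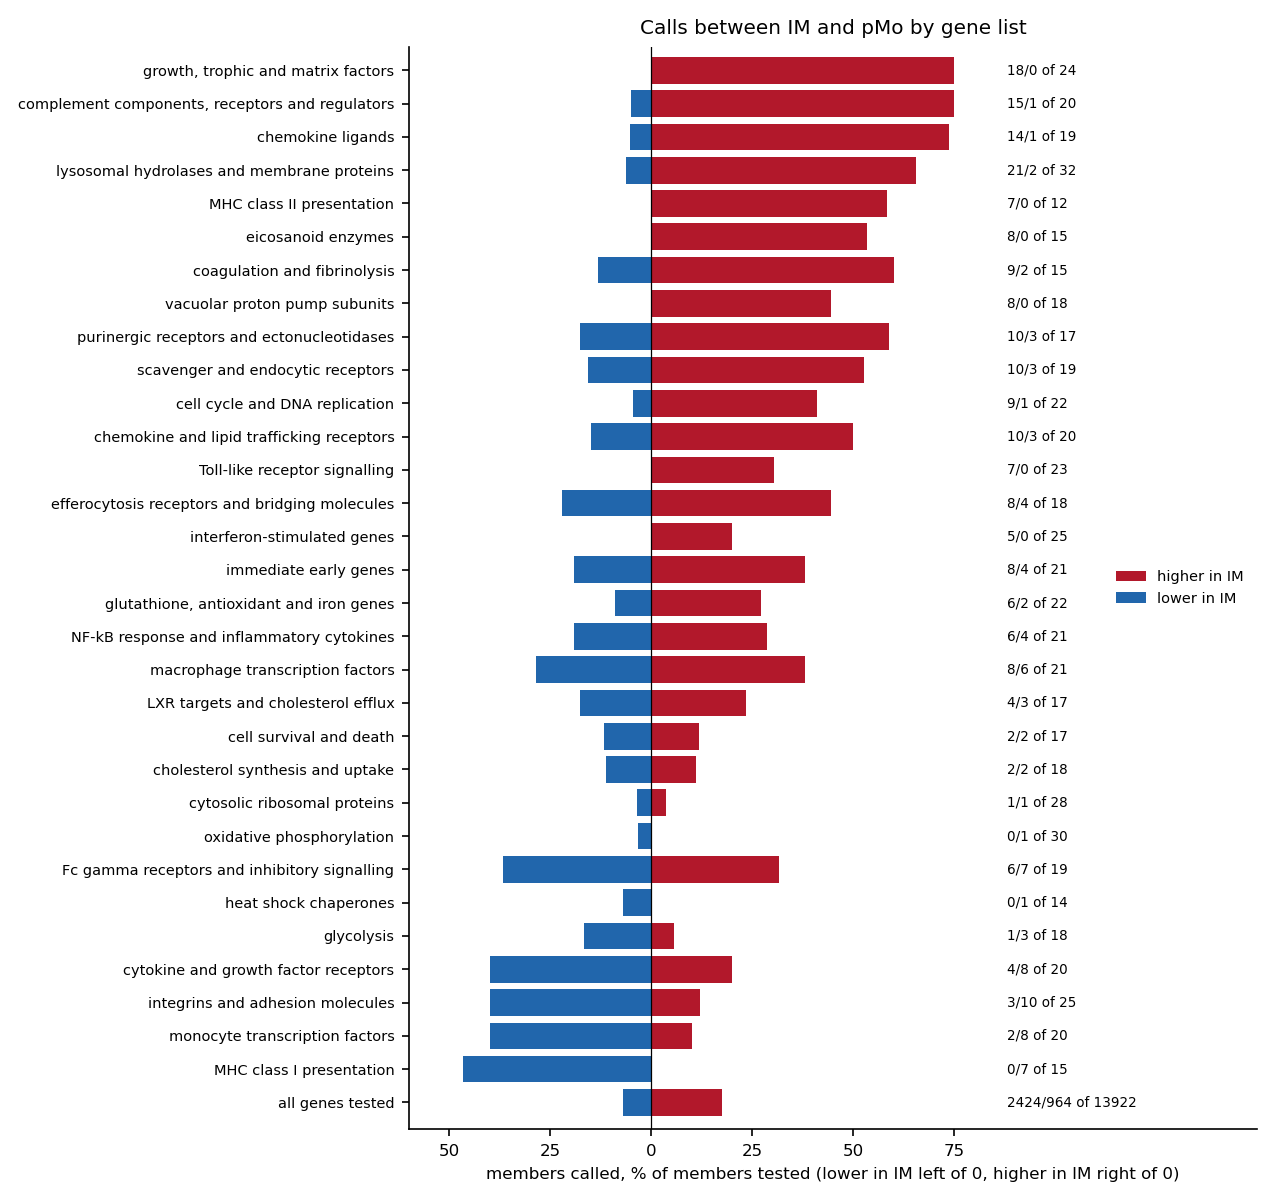
Percent of the tested members of each gene list that were called higher in IM (bars to the right) or lower in IM (bars to the left), with the counts (higher/lower of tested) at the right and the 13922 genes tested (17.4% higher and 6.92% lower) as the bottom bar. Chemokine ligands (14 of 19) and growth and matrix factors (18 of 24) lie mostly to the right, and class I presentation (7 of 15) and adhesion molecules (10 of 25) lie mostly to the left.

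Of 22 genes for glutathione, antioxidants and iron 6 were higher and 2 lower in IM, and 4 and 5 after median-of-ratios scaling. The shares over all genes tested were 17.4% and 6.92%. The lower members were Slc11a1, a metal transporter of the phagosome, and Gpx1, a glutathione peroxidase, and the lower count was 1 in 6 of the 8 fits that left out 1 library, all but those without C57BL6J or DBA2J pMo replicate 2. Ferroportin led the list as given above, and Tfrc, the receptor for iron-loaded transferrin, had 40.9, 31.1, 39.8 and 38.1 TPM in IM, against 7.95, 10.9, 10.0 and 7.75 TPM in pMo (log2 difference 1.93 ± 0.18). Fth1, the ferritin heavy chain that stores iron, had 4482, 10327, 4574 and 4642 TPM in IM, against 2789, 2406, 1926 and 1807 TPM in pMo (log2 difference 1.35 ± 0.25). In AM it had 14371 to 17574.5 TPM, above all IM libraries. Of 17 purinergic receptors and nucleotide-degrading enzymes 10 were higher and 3 lower. P2ry13, an ADP receptor, had 235, 294, 229.8 and 172 TPM in IM, against 6.71, 11.6, 13.4 and 4.43 TPM in pMo (log2 difference 4.62 ± 0.32), and Cd38 and P2ry14 had differences of 2.18 ± 0.34 and 2.93 ± 0.36.

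Of 17 targets of the sterol sensor LXR and genes of cholesterol efflux, 4 were higher and 3 lower in IM. Over all genes tested 17.4% were higher and 6.92% lower. The lower count was 1 without any 1 of the 4 DBA2J libraries. The lower members were Apoc2 and the genes of LXR itself, Nr1h2 and Nr1h3. The higher members were Abca1, Trem2, Lipa and Npc2, and Lipa and Npc2 are also on the lysosome list. Abca1, the cholesterol exporter, had 95.4, 111, 42.6 and 53 TPM in IM, against 13, 16.3, 10.7 and 14 TPM in pMo (log2 difference 2.30 ± 0.22). Apoc2, the activator of lipoprotein lipase, had 51.4, 51.7, 91.7 and 69.9 TPM in IM, against 401, 315, 258 and 163 TPM in pMo (log2 difference -2.05 ± 0.31). Cholesterol synthesis had 2 of 18 members higher and 2 lower, glycolysis 1 of 18 higher and 3 lower, and oxidative phosphorylation 0 of 30 higher and 1 lower. After median-of-ratios scaling these counts were 1 and 4 for cholesterol synthesis, 1 and 5 for glycolysis and 0 and 4 for oxidative phosphorylation. With 1 library left out cholesterol synthesis had 1 to 3 members higher and 0 to 2 lower. At an unadjusted p under 0.05 the oxidative phosphorylation list had 0 members higher and 2 lower in IM. Slc16a3, the lactate exporter, had 280.5, 168, 170.2 and 155 TPM in IM, against 555, 351, 415 and 401 TPM in pMo (log2 difference -1.17 ± 0.21), and the single glycolytic gene higher in IM was the hexokinase Hk3 at 0.67 ± 0.11.

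Genes of survival were called for 4 of 17 members, 2 in each direction, a share near the 24.3% of all genes tested. Without C57BL6J pMo replicate 2, 4 were higher. Bcl2, an anti-apoptotic protein, had 149.9, 84, 168 and 137 TPM in IM, against 245, 298, 268 and 374 TPM in pMo (log2 difference -1.16 ± 0.22). Bcl2l1, the related BCL-XL, had 22.5, 30.0, 21 and 22.9 TPM in IM, against 8.26, 8.08, 9.73 and 12.8 TPM in pMo (log2 difference 1.23 ± 0.20), so that these 2 relatives differed in opposite directions. Of 22 genes of cell cycle and DNA replication 9 were higher in IM and 1 lower, and 2 and 2 after quantile normalization. Their levels were low, as for Ccna2, a cyclin of DNA synthesis, with 21.3, 10.2, 11.6 and 10.2 TPM in IM, against 3.02, 8.2, 1.51 and 2.23 TPM in pMo (log2 difference 1.72 ± 0.35). Of 28 cytosolic ribosomal protein genes 1 was higher and 1 lower.

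Classical monocyte markers were higher in IM for 12 of 13 members and lower for none. Chil3, a chitinase-like secreted protein, had 869.9, 933, 107 and 149.8 TPM in IM, against 26.2, 26.5, 9.93 and 22.5 TPM in pMo (log2 difference 4.02 ± 0.44). Its level was higher in AM, at 1099 to 3963 TPM, than in iMo, at 80.2 to 408 TPM. Mmp8, noted above for neutrophil granules, is also among the 12. Ly6c2, the antigen Ly6C of classical monocytes, had 308, 58.7, 351 and 311 TPM in IM, against 28.6, 13.7, 27.7 and 27.6 TPM in pMo (log2 difference 3.12 ± 0.50). Its level in iMo was 727 to 1269 TPM, above all IM libraries, and C57BL6J IM replicate 2 held less than the other 3 IM libraries. Alveolar macrophage markers were higher in IM for 15 of 18 members and lower for 1, the lipid-handling nuclear receptor Pparg. Siglecf, the lectin that marks alveolar macrophages, had 71.4, 198, 21.1 and 22.4 TPM in IM, against 2.66, 4.26, 1.14 and 4.88 TPM in pMo (log2 difference 3.73 ± 0.55). Ear1, a ribonuclease, had 138, 543, 133 and 162 TPM in IM, against 28.2, 2.47, 0 and 7.57 TPM in pMo (log2 difference 5.21 ± 0.88). The AM libraries of the series held 402 to 878 TPM of Siglecf and 1667 to 2892 TPM of Ear1. The summed level of the alveolar list was 906 to 3058 TPM in IM and 196 to 318 TPM in pMo, against 12592 to 15401 TPM in AM, and C57BL6J IM replicate 2 was the highest IM library. The part of alveolar macrophage or classical monocyte RNA in the IM values was not tested.

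Among the other markers, the sort panel held 5 of 9 genes higher and 1 lower in IM. Ptprc (CD45), Adgre1 (F4/80) and Itgam (CD11b) had no call, at differences of -0.32 ± 0.33, 0.54 ± 0.17 and -0.24 ± 0.17. Of 17 T and NK cell markers 5 were higher in IM, T cell genes such as Cd4 among them, and 6 lower, all but Cd7 known for cytotoxic function or NK cells. The lower count was 2 without C57BL6J IM replicate 1, C57BL6J pMo replicate 1 or DBA2J pMo replicate 2, and 3 without C57BL6J pMo replicate 2 or DBA2J IM replicate 2. Prf1, the pore-forming perforin, had 2.92, 10.3, 0 and 0.29 TPM in IM, against 61.2, 77.4, 8.87 and 47.6 TPM in pMo (log2 difference -3.83 ± 0.55). Of 10 dendritic cell markers 4 were higher and 1 lower, and Siglech, a lectin of plasmacytoid cells, had 88.7, 122, 29.2 and 45.4 TPM in IM, against 0.863, 2.01, 1 and 1.08 TPM in pMo (log2 difference 4.83 ± 0.33). Of 9 endothelial markers 6 were higher and none lower, and 3 were higher without C57BL6J IM replicate 2, C57BL6J pMo replicate 1 or DBA2J pMo replicate 1. Their sum was 72.8 to 609 TPM in IM, lowest in DBA2J replicate 1, and 82.7 to 127 TPM in pMo.

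B cell markers gave no call among 9, with sums of 282 to 1056 TPM in IM and 289.9 to 3504 TPM in pMo, and within pMo both DBA2J libraries were far above both C57BL6J libraries. Erythroid genes gave no call among 5, with sums of 7.21 to 387 TPM in IM, where C57BL6J replicate 1 stood far above the other 3, and 73.5 to 468 TPM in pMo. Eosinophil and mast cell markers had 0 calls of 4, epithelial markers 1 of 7, fibroblast markers 1 of 7 and platelet markers 1 of 8, all of the last 3 higher in IM. At an unadjusted p under 0.05 limma gave 1 B cell gene and 3 erythroid genes lower in IM and 1 eosinophil or mast cell gene higher. What these cells contributed to other differences was not tested.

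**Figure D5:**
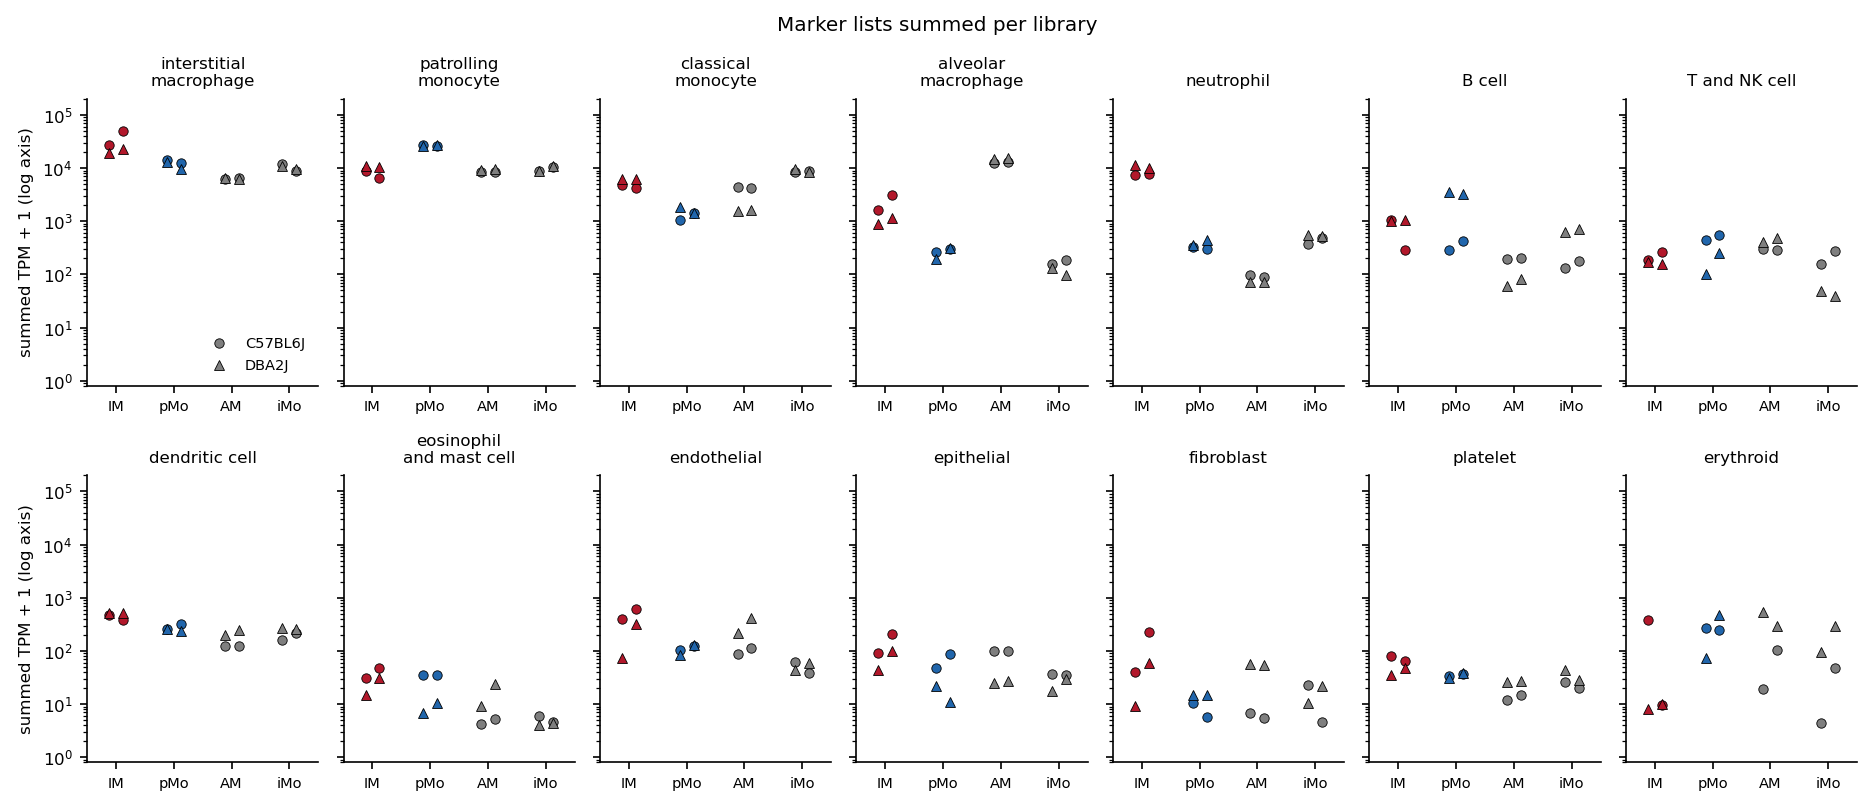
Summed TPM + 1 (log axis) of 14 cell type marker lists in each library of IM, pMo and, in grey, AM and iMo, with circles for C57BL6J and triangles for DBA2J. The neutrophil, classical monocyte and alveolar macrophage sums lie higher in every IM library than in any pMo library, and the patrolling monocyte sum lies lower.

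The difference between IM and pMo itself differed between strains, by a test of the DBA2J difference minus the C57BL6J difference, for 54 genes (0.388%). Of these 17 were higher in DBA2J and 37 lower, and 24 were entries spanning under 200 bases. H2-Q10, a class I gene, had 282, 227, 66.7 and 71.1 TPM in IM, against 4.83, 1.93, 285 and 221 TPM in pMo. The DBA2J libraries thus held it mainly in pMo and the C57BL6J libraries mainly in IM, and the strain difference was -7.79 ± 0.47 (adjusted p = 0.00286). H2-M2, another class I gene, had 35.6, 84.1, 0 and 0 TPM in IM, against 5.71, 4, 98 and 70.9 TPM in pMo (strain difference -9.67 ± 0.59, adjusted p = 0.00286). In AM, H2-Q10 had 1.03, 0.656, 261 and 168 TPM and H2-M2 had 3.4, 1.09, 56.5 and 40.2 TPM, and in both AM and iMo the DBA2J libraries were the high ones. The IM libraries went against that strain pattern, and these were the 2 genes of the strain check above that did so. Reads of class I genes can be split among near-identical copies, so both are uncertain. The other named genes were small RNAs such as Snora31, with 217, 129.7, 0 and 0 TPM in IM, against 0, 0, 27.8 and 59.6 TPM in pMo (strain difference -12.78 ± 0.59), and Mir295, with 0, 0, 252 and 356 TPM in IM and 0 in all pMo libraries. Where groups lie at 0, the size of a strain difference depends on the 1 TPM added before the log. With 2 libraries per cell type and strain the count moved with single C57BL6J libraries. It was 17 without pMo replicate 2, 26 without pMo replicate 1, 83 without IM replicate 2 and 97 without IM replicate 1 of that strain.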

How the data were processed

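The authors' deposited table gives TPM for 24940 genes. Its gene length equals the genomic span for 99.5% of genes, so levels were not compared between genes. Per the submitters' processing notes the tools were Bowtie, STAR and HOMER and the build mm10, and no source used here states their roles or versions. Per the labels' protocols, libraries were made strand-specifically from polyA RNA. The deposited peak lists, 1 for each cell type and strain from 2 libraries, carry a score on a scale not given in the sources used here, which was used only to take the peaks at or above the median score of a list.

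Rn45s and Mir6236 were removed and each library rescaled to 1000000. Genes averaging 1 TPM or more across these 8 libraries were fitted as log2(TPM + 1) in limma 3.58.1 (R 4.3.3) with cell type and strain and a mean-variance trend, 5 residual degrees of freedom, and Benjamini-Hochberg adjustment over all 13922 genes. The 8 per-sample columns of AM and iMo gave levels only. A second model with 4 group means tested the strain difference. Both were tested on simulated data. A peak was assigned to a gene within 1 kb of its start, and promoters came from RefSeq (GRCm38.p6). Tables were handled in Python 3.11.15 with pandas 2.3.3. The members and gene lists were chosen with earlier results of these data known. Named genes were the 12 largest differences each way without overlap between libraries, up to 4 called members of each list, the sort panel, the 4 markers and the largest strain differences. Some genes that this rule names are not reported here. Cx3cr1, Itgal, Itgb2 and the protein-coding genes lower in IM that are outside this rule were chosen after their values were seen. Alternatives were other pseudocounts, filters, scalings, models, strains, thresholds, peak windows and leaving out each library.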

Additional observations from a re-analysis of the deposited data

Results flagged for a closer look

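In 29 of 256 groups of 4 libraries (11.3%), 1 library lay apart from the other 3 by more than Dixon's limit for 4 values, where chance gives about 1 in 20. The groups pool 2 strains. All 15 such values in IM belonged to C57BL6J libraries. C57BL6J IM replicate 2 was high, at 543 TPM, for Ear1, at 517 TPM for Folr2, at 10327 TPM for Fth1, at 1766 TPM for Maf and at 32.6 TPM for P2ry14. It was low at 412 TPM for Itgb2, at 58.7 TPM for Ly6c2 and at 282 TPM for the summed B cell markers. C57BL6J IM replicate 1 was high at 21.3 TPM for Ccna2, at 156 TPM for Cd300e, at 115 TPM for Dusp2, at 280.5 TPM for Slc16a3, at 48.9 TPM for Tmem121b and at 387 TPM for the summed erythroid genes. It was low at 11.1 TPM for Il1a.

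In pMo, C57BL6J replicate 1 was high at 686 TPM for Ddit4 and low at 44.6 TPM for C1qc and 1.18 TPM for Mmp12. The same library alone held a trace of Asprv1 at 3.02 TPM, Ccl8 at 0.957 TPM and Il1f9 at 0.434 TPM. C57BL6J pMo replicate 2 was high at 37.8 TPM for Ctsl, 17.3 TPM for Cxcl13, 1136 TPM for Itgb2 and 22.8 TPM for Pf4, and low at 13.7 TPM for Ly6c2. DBA2J pMo replicate 1 was high at 7.66 TPM for Ccl7. DBA2J pMo replicate 2 was high at 6.57 TPM for Ctsf and 829 TPM for Pou2f2.

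Among the genes named for a difference between IM and pMo that itself differed between strains, the value of DBA2J minus C57BL6J was -9.67 ± 0.59 for H2-M2, -7.79 ± 0.47 for H2-Q10, 8.23 ± 0.44 for Mir295 and -12.78 ± 0.59 for Snora31 (± SE). For H2-M2, Mir295 and Snora31 some groups lie at 0, so these sizes depend on the 1 TPM added before the log.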

How the results depend on the processing

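Depth per library is unknown, since TPM keeps no read counts, and short entries and genes at a few TPM are the least certain. In simulated data a log2 difference of 2 between IM and pMo was recovered for 79.0% of 200 changed genes and one of 1 for none. Small differences would thus be missed where few genes change. With 200 of 13922 genes changed, against 3388 called here, the adjusted p was stricter in the simulation. Smaller differences were called in these data, such as 0.67 ± 0.11 for Hk3, so the rates for IM minus pMo do not describe this fit. A strain difference of 3 was recovered for 53.5%. Of 2621 values of the 114 named genes under 23 alternatives, 2519 kept their direction and their side of the threshold, 82 lost the call, 11 gained one and 9 changed sign. The 9 belonged to genes without a call with all libraries. They were 3.27 for H2-M2 in C57BL6J alone, and -1.85 for H2-Q10, 0.073 for Itgam, 0.28 for Ptprc and -5.38 for Snora31 in DBA2J alone. For Snora31 the value was -0.42 to 2.50 with 1 library left out, and negative without any 1 of the 4 C57BL6J libraries. The cause was not tested where none is shown.

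The 3388 called genes were 5646 with all 16 RNA libraries in the model, 1025 in C57BL6J alone and 1590 at an adjusted p under 0.01, and 2090 to 3453 with 1 library left out. The 2424 higher in IM were 1507 after quantile normalization, 3858 with 16 libraries, 911 in C57BL6J alone, 1495 in DBA2J alone and 1218 at 0.01, and 1555 to 2477 with 1 library left out. The 964 lower in IM were 1944 after median-of-ratios scaling, 1585 after quantile normalization, 1788 with 16 libraries, 114 in C57BL6J alone and 372 at 0.01, and 535 to 984 with 1 library left out. The 1803 at least 2-fold higher were 1034 with a pseudocount of 5, 1060 after quantile normalization, 903 in C57BL6J alone and 1127 at 0.01, and 1345 to 1817 with 1 library left out. The 452 at least 2-fold lower were 299 for TPM as deposited, 742 after median-of-ratios scaling, 698 after quantile normalization, 111 in C57BL6J alone and 280 at 0.01, and 326 to 492 with 1 library left out.

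Over all lists together, 249 distinct members were higher in IM, 116 in C57BL6J alone and 197 to 248 with 1 library left out. The 93 lower were 145 after median-of-ratios scaling, 10 in C57BL6J alone and 53 at 0.01, and 60 to 85 with 1 library left out. The 54 genes called between strains were 30 with a pseudocount of 0.1, 82 with no filter, 21 at a mean of at least 5 TPM and 677 with 16 libraries, and 17 to 97 with 1 library left out. Of the shares of genes with a peak, 7.82% (IM only, DBA2J) was 6.38% and 9.29% (pMo only, DBA2J) was 6.42% among the better-scored peaks, at or above the median score of each list. In C57BL6J, 28.0% (IM only) was 22.7% within 10 kb and 1.77% (pMo only) was 0.442% among the better-scored peaks.

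Same-numbered IM and pMo libraries did not deviate together, with correlations of -0.039 in C57BL6J and 0.043 in DBA2J, so their numbers were not taken as a pairing. With the replicate number within each strain as a block, 600 genes were lower in IM and 0 differed between strains. The fits in 1 strain rest on 2 libraries against 2.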
